A study of Mus musculus with 10 samples.

Results

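Butyrylation and acetylation of histone H4 at lysine 8 (H4K8bu and H4K8ac) were set side by side in mouse spermatocytes, the germ cells in meiosis. The data were the enriched islands that the authors had called by chromatin immunoprecipitation and sequencing (ChIP-seq), 1 library for H4K8bu and 1 for H4K8ac. All islands on chromosomes 1 to 19 were taken, 40695 for H4K8bu and 35370 for H4K8ac. They made up 76065 of the 301484 islands in the 8 lists of the series, which covers 4 marks of H4 in spermatocytes and round spermatids. The cells were fractionated from testes of mice of the strain Oncins France 1, with no treatment or mutant group, and no age is given in the labels. For each library, 100 ug of mononucleosomes met 5 ug of a rabbit antibody, from PTM biolabs for H4K8bu and a gift from Dr H. Kimura for H4K8ac, in a buffer with 10 mM sodium butyrate. The number of animals behind a library is not stated, and the lists carry no gene names, so the cell label was not checked against markers. A single input library of spermatocyte nucleosomes stood behind both lists. With 1 library a side there was no replicate error, no difference between the marks could be tested, and antibody, library and mark cannot be told apart. Intervals below are 95% intervals. For shares, folds and ratios of reads they hold only the counting error, and for medians only the spread between islands.

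Acetylation of the H4 tail neutralises the charge of a lysine, is read by bromodomain proteins and marks active promoters and enhancers. Butyrylation puts a longer acyl chain on the same lysine, so a given lysine carries either mark but not both at once. Male germ cells carry much acylated H4: the tail is acetylated at large scale before histones give way to protamines, and the testis protein Brdt binds acetylated H4 through its bromodomains.

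The H4K8bu list was longer, wider and somewhat more enriched. H4K8bu islands covered 158.5 Mb with 9101516 ChIP reads, and H4K8ac islands covered 115.6 Mb with 5524237. The width of an island had a median of 3000 bp for H4K8bu and 2600 bp for H4K8ac. Fold over input means ChIP reads over input reads in an island, scaled by the ratio of the library sizes. Pooled over a list it was 4.70 for H4K8bu and 4.05 for H4K8ac. By the constants of the lists, the H4K8bu library was 1.05 times as large as the H4K8ac library, so depth differed little.

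Most places were called for both marks. An island was counted as shared where it met an island of the other list by at least 1 bp, and as private otherwise. Of H4K8bu islands, 31646 were shared, 77.8% (77.4 to 78.2), and of H4K8ac islands 33023 were shared, 93.4% (93.1 to 93.6). Shared islands held 91.0% of the H4K8bu reads and 96.9% of the H4K8ac reads that lay in islands. In bases, 100.97 Mb lay in both lists, which is 63.7% of the H4K8bu bases and 87.4% of the H4K8ac bases. The acetyl list thus lay largely within the butyryl list, and the converse held less. In bases this order follows from the smaller coverage of the H4K8ac list. With the lists trimmed to equal length by fold the gap was narrower, at 83.4% of H4K8bu and 87.4% of H4K8ac islands.

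Private islands were narrower and weaker than shared ones on both sides. Private H4K8bu islands, 9049 in number, had a median width of 2200 bp, against 3200 bp for shared H4K8bu islands. Private H4K8ac islands, 2347 in number, had a median width of 1600 bp, against 2800 bp for shared H4K8ac islands. A private H4K8bu island held a median of 81 ChIP reads over 33 input reads, and a shared one 195 over 45. For H4K8ac the medians were 60 ChIP reads over 27 input reads in private islands and 125 over 38 in shared islands. Per kb, ChIP reads had a median of 37.1 in private and 58.0 in shared H4K8bu islands, and of 36.2 in private and 46.6 in shared H4K8ac islands. Input reads per kb had a median of 15 in private and 14.0 in shared H4K8bu islands, and of 16.7 in private and 13.9 in shared H4K8ac islands. Private islands thus had fewer ChIP reads per kb and also more input reads per kb, the input gap being wider for H4K8ac.

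The median fold was 2.90 (2.88 to 2.93) in private and 5.03 (4.99 to 5.08) in shared H4K8bu islands. It was 2.69 (2.64 to 2.75) in private and 4.26 (4.23 to 4.30) in shared H4K8ac islands. Pooled over their reads, private islands had a fold of 2.77 for H4K8bu and 2.11 for H4K8ac. A single H4K8ac island weighs on this last value, at chr11:3022201-3104600, with 20877 ChIP reads over 23220 input reads and a fold of 1.12 (1.10 to 1.14). Without it the pooled fold of private H4K8ac islands was 2.40. The part of the calling threshold in the order of private and shared islands was not tested, and an uncalled place is not a measured absence of a mark.

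How often an island was shared ran steeply with its fold and its width. Of H4K8bu islands with a fold of 2 or less, 32.5% were shared (30.2 to 34.96), of those with a fold between 3 and 4, 73.7% (72.8 to 74.7), and of those over 8, 96.8% (96.3 to 97.3). The same classes of H4K8ac islands were shared in 74.3% (72.3 to 76.3), 92.5% (91.9 to 93.1) and 99.3% (98.9 to 99.6). The lists differed most at the weak end and came together at the strong end. By width, 66.3% of H4K8bu islands up to 2000 bp were shared, 74.1% of those over 2000 and up to 4000 bp, 90.6% of those over 4000 and up to 8000 bp and 99.2% of those over 8000 bp. For H4K8ac the percents were 86.7, 95.5, 99.01 and 99.7 in the same order of width. Above 8000 bp, 26 of 3457 H4K8bu islands and 4 of 1320 H4K8ac islands were private, and all of these had a fold of 4 or less.

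**Figure D1:**
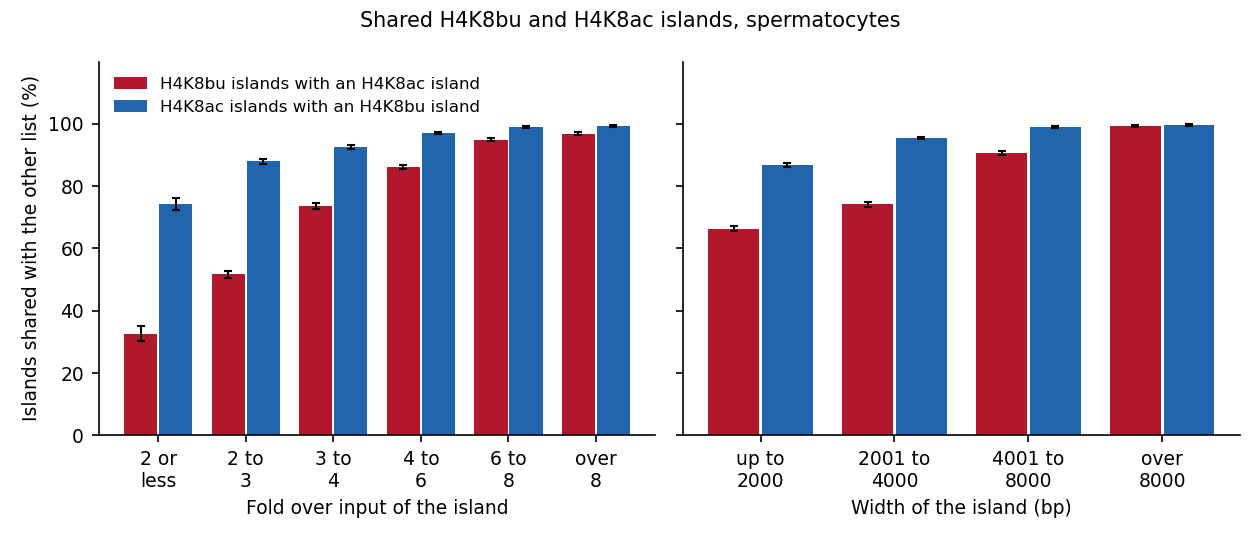
Percent of H4K8bu islands (red) and H4K8ac islands (blue) of spermatocytes that met an island of the other list by at least 1 bp, by fold over input (left) and by width in bp (right), with 95% exact binomial intervals as error bars. H4K8bu runs from 32.5% to 96.8% shared with fold, and H4K8ac from 74.3% to 99.3%.

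Some strong islands with many reads were private to H4K8bu, where private means that the H4K8ac list as held here has no island there. Among islands with a fold over 6 and at least 100 ChIP reads, 84 of 10953 were private to H4K8bu, 0.767% (0.612 to 0.949), spread over 18 of the autosomes. For H4K8ac it was 0 of 6595, which allows a share of up to 0.0455% by a limit of 3 islands, and of up to 0.0559% by the exact interval. With fewer reads H4K8ac had such islands too. At any depth, 53 of 5280 H4K8ac islands with a fold over 6 and up to 8 were private, and 19 of 2703 over 8. For H4K8bu, 342 of 6693 and 173 of 5414 islands were private in these classes. The 84 H4K8bu islands were 1600 to 5000 bp wide, with a median of 2800 bp. The 3 with the highest fold lay at chr16:92695801-92699000, at chr8:94882601-94885000 and at chr8:72404001-72407400 (build mm9, counted from 1). The first held 149 H4K8bu reads over 12 input reads, a fold of 14.7 (8.17 to 29.1). The second held 102 over 9, a fold of 13.4 (6.80 to 30.2), and the third 135 over 12, a fold of 13.3 (7.38 to 26.4). Input at each was thin, and the intervals are correspondingly wide. All 3 held H4K5ac islands in spermatocytes, with a fold of 18.0, 12.9 and 20.5, and the first and the third held H4K5bu islands, with 9.58 and 11.9. None of the 3 had an H4K8bu or H4K8ac island in round spermatids.

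The private H4K8ac islands with the highest fold, among the 117 with at least 100 ChIP reads, were weaker. They lay at chr14:57900801-57903600 with a fold of 5.22 (3.35 to 8.43), at chr1:27976401-27978200 with 4.65 (3.02 to 7.40), and at chr15:34182601-34186000 with 3.35 (2.30 to 4.97). The private islands with the most reads were of another kind, mostly lying where input was deep. For H4K8bu the first was at chr5:15156601-15170200, with 1456 ChIP reads over 1192 input reads and a fold of 1.45 (1.34 to 1.56). The next, at chr13:120273001-120284200, had 784 over 782 and a fold of 1.19 (1.07 to 1.31). The third, at chr17:28640801-28652600, had 419 over 154 and a fold of 3.22 (2.67 to 3.90). After the chromosome 11 island above, H4K8ac had 1452 reads over 1594 at chr5:15203801-15222200, a fold of 1.13 (1.05 to 1.22), and 702 over 766 at chr5:33070801-33085000, a fold of 1.14 (1.03 to 1.26). Thus 5 of these 6 islands lay within 1.5-fold of input and had 53.9 to 281.8 input reads per kb. The chr17 island had 13.1 input reads per kb, and it met H4K5ac in spermatocytes (fold 5.04) and both K8 marks in round spermatids (3.72 for H4K8bu and 2.92 for H4K8ac).

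Few private islands lay close beside an island of the other mark. Distances from random places are not given for comparison, so whether these are long or short for the genome cannot be told. The nearest H4K8ac island lay a median of 16400 bp (15800 to 17000) from a private H4K8bu island. The nearest H4K8bu island lay 16600 bp (15400 to 17800) from a private H4K8ac island. Within 1000 bp of the other list lay 3.70% of private H4K8bu and 3.11% of private H4K8ac islands. Within 10000 bp lay 37.2% and 36.1%.

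The round spermatid lists, made with other libraries and another input, were then searched for the private islands. Private H4K8bu islands were often seen there. Of them 53.3% (52.3 to 54.3) met an H4K8bu island of round spermatids, against 64.2% (63.7 to 64.7) of shared H4K8bu islands. Private H4K8ac islands were seldom seen. Of them 5.28% (4.41 to 6.27) met an H4K8ac island of round spermatids, against 58.2% (57.7 to 58.8) of shared H4K8ac islands. An H4K8bu island of round spermatids was met by 10.1% (8.87 to 11.3) of private and 65.2% (64.7 to 65.7) of shared H4K8ac islands. The round spermatid lists differed in coverage, with 181.7 Mb for H4K8bu and 114.3 Mb for H4K8ac. Since private islands are weaker and narrower, classes of like fold and width were compared next.

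Among islands with a fold over 2 and up to 4 and a width up to 4000 bp, the marks still differed. Of 5351 private H4K8bu islands in this class, 55.9% (54.5 to 57.2) met an H4K8bu island of round spermatids, against 38.4% (37.3 to 39.6) of 6606 shared ones. In this class 4.23% (3.26 to 5.39) of 1466 private H4K8ac islands met an H4K8ac island of round spermatids, against 40.2% (39.3 to 41.2) of 10669 shared ones. These H4K8ac sets were still unlike, with a median width of 1600 bp in the private and 2200 bp in the shared set. Their median folds were 2.75 and 3.01. In this weak class the private H4K8bu islands were thus seen in round spermatids more often than the shared ones. Both H4K8bu sets had a median width of 2200 bp, and the median fold was lower in the private set, 2.79 against 3.18. The private set met H4K8ac islands of round spermatids more often too, at 42.0% (40.7 to 43.4) against 30.8% (29.7 to 31.9). Stronger private H4K8bu islands went the other way. With a fold over 4 and a width up to 4000 bp, 23.4% (21.6 to 25.4) of 1960 private ones met an H4K8bu island of round spermatids, against 49.2% (48.4 to 50.1) of 12694 shared ones. Width differed too, with a median of 1600 bp in the private and 2400 bp in the shared set. Up to 2000 bp alone, most of the gap was gone, at 19.1% (17.2 to 21.2) of private and 22.1% (21.0 to 23.3) of shared islands, with intervals that barely overlapped. For H4K8ac islands of round spermatids the shares were 14.5% of private and 40.2% of shared islands up to 4000 bp. Up to 2000 bp they were 10.6% (9.07 to 12.3) and 14.9% (13.9 to 15.9), with intervals apart. For H4K8ac the gap stayed wide in the class with a fold over 4 and a width up to 2000 bp. There 1.05% (0.288 to 2.67) of 380 private H4K8ac islands met an H4K8ac island of round spermatids, against 24.3% (23.2 to 25.5) of 5521 shared ones. Median widths were still unlike, 1000 bp in the private and 1600 bp in the shared set.

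Where both marks were called, their islands mostly met 1 to 1. Touching islands of both lists made 31242 joined regions. In 29319 of them, 93.8%, 1 H4K8bu island met 1 H4K8ac island, and these pairs are the basis of what follows. In 1526 regions 1 H4K8bu island spanned 2 or more H4K8ac islands, and in 290 regions 1 H4K8ac island spanned 2 or more H4K8bu islands. Acetyl islands were broken up under a butyryl island more often than the reverse. The gaps between the acetyl pieces, summed over a region, had a median of 1000 bp. In another 107 regions both lists had 2 or more islands. The region with the most islands, at chr10:94963001-94986800, held 2 H4K8bu and 6 H4K8ac islands, with a fold of 5.73 (5.02 to 6.57) for H4K8bu and 4.73 (4.08 to 5.50) for H4K8ac. Next came chr7:107321401-107341600, with 2 and 4 islands and a fold of 3.11 (2.75 to 3.53) and 2.25 (1.94 to 2.62), and chr12:55645801-55671600, with 2 and 4 islands and a fold of 4.77 (4.24 to 5.37) and 3.84 (3.39 to 4.37).

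In the pairs the butyryl island was usually the wider one. Its median width was 3200 bp, against 2600 bp for the acetyl island, and the median difference was 400 bp. The H4K8bu island was wider in 63.2% of pairs, of the same width in 9.11% and narrower in 27.7%. Edges lie on a grid of 200 bp set by the caller, so the median excess was 1 grid step a side. H4K8bu reached further out at the left edge in 53.8% of pairs and at the right edge in 53.9%, and H4K8ac did so in 26.5% and 26.6%. The edges were the same in 19.8% and 19.5%. Left and right edges behaved alike.

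**Figure D2:**
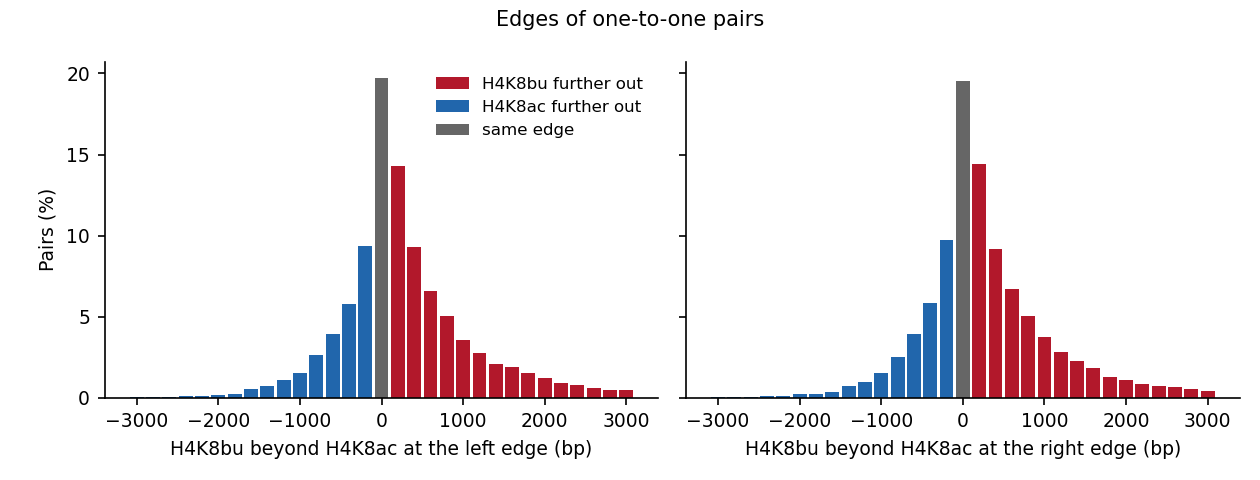
Distance in bp by which the H4K8bu island reached beyond the H4K8ac island at the left edge (left panel) and right edge (right panel) in the 29319 pairs, as percent of pairs per step of 200 bp. Red bars (H4K8bu further out) outweigh blue ones (H4K8ac further out) at both edges, grey is the same edge, and 2.2% of left and 2.25% of right edges lie outside the axis.

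Taken as pairs of edges, H4K8bu was further out on both sides in 8898 pairs, 30.3%, and H4K8ac in 2225, 7.59%. Each list was further out on 1 side in 7893 pairs, 26.9%, and both edges were the same in 1211, 4.13%. The excess of the butyryl island was alike at all strengths. When the pairs were sorted by the mean of the log2 folds of both marks into 5 strength classes of equal size, its median was 400 bp in each, and 60.2 to 66.3% of pairs had a wider H4K8bu island. It was larger beside wide acetyl islands, 1000 bp where the H4K8ac island was over 8000 bp and 400 bp where it was up to 2000 bp.

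The ratio of butyryl to acetyl was read as the H4K8bu fold over the H4K8ac fold of a pair, on a log2 scale. Its zero depends on antibody and enrichment, so only differences between classes of pairs are of interest. Over all pairs the median was 0.25 (0.25 to 0.26). A ratio at least 1.5-fold above this median was seen in 4.5% of pairs and one at least 1.5-fold below it in 7.43%. The standard deviation over pairs was 0.39, against 0.18 for counting error in the ChIP reads alone. With ChIP reads per kb in place of folds, which leaves out the input reads, the standard deviation was 0.32. The ratio thus varied between pairs by more than the counting error of the ChIP reads, with a 10th percentile of -0.25 and a 90th of 0.68. Between autosomes its median differed little. The median of single autosomes ran from 0.23 on chromosome 3 to 0.27 on chromosome 14. The share of islands that were shared was as even, from 74.9% on chromosome 14 to 79.5% on chromosome 11 for H4K8bu and from 92.1% on chromosome 16 to 94.7% on chromosome 11 for H4K8ac.

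Much of the spread in the ratio moved with how unequally the islands were drawn. A fold is taken over the whole called island, flanks included. In pairs where under 50% of the joined width lay in both islands, the median ratio was -0.0013 and the standard deviation 0.56. From 50 to under 70% these were 0.17 and 0.41, from 70 to under 80% 0.27 and 0.32, from 80 to under 90% 0.33 and 0.28, and at 90% and over 0.37 and 0.25. The counting error of the ChIP reads alone changed little over these classes, from 0.20 to 0.17. Counting error of the input reads is not in it. With ChIP reads per kb in place of folds, the standard deviation ran from 0.43 under 50% to 0.24 at 90% and over. Across these classes the median was higher and the spread smaller the more the islands overlapped. Pairs with the same edges, which were narrower with a median of 1800 bp, did not continue this order, at a median of 0.28 and a standard deviation of 0.26. Where H4K8bu was further out on both sides the median was 0.093 (0.084 to 0.10), and where H4K8ac was, it was 0.57 (0.55 to 0.59).

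The pairs with the most extreme ratios showed the same thing one by one. The highest ratio with at least 100 reads in each list lay at chr10:85417401-85423200. There a 3000 bp H4K8bu island held 194 reads over 13 input reads, a fold of 17.7 (10.1 to 33.8), and a 5800 bp H4K8ac island held 188 over 57, a fold of 4.10 (3.03 to 5.62). The ratio of folds was 4.31, but that of the ChIP reads scaled by library size was 0.983 (0.80 to 1.21). At chr8:88225001-88229000 the ratio of folds was 4.15 and that of the reads 0.889 (0.692 to 1.14), with islands of 1200 bp for H4K8bu and 4000 bp for H4K8ac. At chr11:5345001-5348600 the values were 4.07 and 1.15 (0.925 to 1.44), with 1400 and 3400 bp. Each of the 3 had an acetyl island 2000 bp or more wider than the butyryl one, and a ratio of reads whose interval held 1. These reads came from islands of unlike width. Per kb of island, the ratio of scaled reads was 1.90, 2.96 and 2.80 in the same order, above 1 as the ratio of folds was.

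At the low end the islands were unequal the other way. At chr10:113749601-113753400 a 3800 bp H4K8bu island had a fold of 3.4 (2.54 to 4.61) and a 2000 bp H4K8ac island one of 11.7 (6.75 to 22.0). The ratio of folds was 0.290 and that of reads 1.31 (1.04 to 1.65). At chr1:5072201-5077800 the ratio of folds was 0.326 and that of reads 1.79 (1.47 to 2.18), with islands of 5600 and 2000 bp. At chr8:73992001-73997800 it was 0.359 and 2.06 (1.65 to 2.60), with 5800 and 2400 bp. In each of these low pairs the larger number of scaled reads was that of H4K8bu, the mark with the lower fold and the wider island. Per kb of island, the ratio of scaled reads was 0.687, 0.640 and 0.854, in the direction of the ratio of folds.

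A set of 3907 pairs with at least 90% of the joined width in both islands, called matched pairs below, was therefore used to read the ratio. This limit was set after the data had been seen. Within them 0.23% of pairs had a ratio at least 1.5-fold above their own median, and 2.23% one at least 1.5-fold below it, against 4.5% and 7.43% in all pairs. In pairs with under 50% of the joined width in both islands these percents were 15 and 13.4, against the median of that set. In the 1211 pairs with the same edges the input counts were the same in both lists, so the ratio is one of ChIP reads alone. Their median was 0.28 (0.26 to 0.30) and their standard deviation 0.26, against 0.21 for counting error. At least 1.5-fold above that median lay 0.495% of them and at least 1.5-fold below it 1.82%.

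In matched pairs the ratio was higher in wider islands. Its median was 0.20 (0.17 to 0.23) up to 2000 bp, 0.35 (0.33 to 0.36) over 2000 and up to 4000 bp, 0.45 (0.44 to 0.47) over 4000 and up to 8000 bp and 0.48 (0.47 to 0.50) over 8000 bp. As plain ratios these are 1.15, 1.27, 1.37 and 1.40 times as much butyryl as acetyl fold. The spread shrank at the same time, with a standard deviation of 0.27 in the narrowest and 0.15 in the widest class. Reads were more numerous in wide islands, with a median of 94.5 H4K8bu and 77 H4K8ac reads in the narrowest class and of 725 and 477 in the widest, and whether the call threshold takes part in the relation was not tested. In the 1367 matched pairs where both islands had 200 reads or more, medians were 0.36 (0.34 to 0.39), 0.45 (0.44 to 0.47) and 0.48 (0.47 to 0.50) in the upper 3 width classes, and only 5 pairs were up to 2000 bp. The order was the same whichever island set the width. This could hardly differ, because both islands of a matched pair have nearly the same width. By H4K8bu width the medians were 0.21, 0.36, 0.45 and 0.48, and by H4K8ac width 0.21, 0.36, 0.46 and 0.49. Pairs with the same edges gave 0.18, 0.35, 0.46 and 0.45, the last from 15 pairs. They are part of the matched pairs and no separate check. Of the 952 matched pairs up to 2000 bp, 700 had the same edges.

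**Figure D3:**
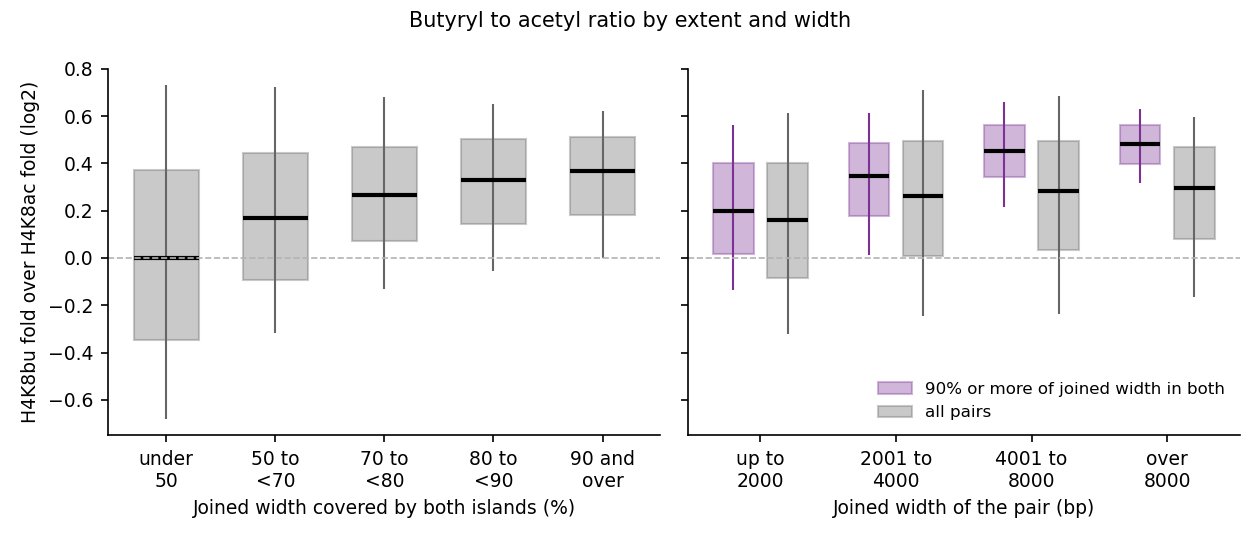
H4K8bu fold over H4K8ac fold (log2) by the percent of the joined width that lay in both islands (left, all pairs) and by joined width in bp (right, matched pairs in purple and all pairs in grey), with medians as black lines, the middle 50% of pairs as boxes and the 10th to 90th percentiles as thin lines. The spread shrinks from left to right in the left panel, and the purple medians run from 0.20 to 0.48.

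In all pairs the width relation was shallower and depended on strength. The medians were 0.16 (0.15 to 0.17), 0.26 (0.25 to 0.27), 0.28 (0.27 to 0.29) and 0.30 (0.28 to 0.32) from the narrowest to the widest class. In the weakest strength class they ran from 0.10 (0.071 to 0.13) to 0.32 (0.29 to 0.34), and in the strongest from 0.25 (0.21 to 0.29) to 0.25 (0.21 to 0.31). With the upper 50% of each list by fold the difference between the widest and the narrowest class was -0.0027. By the width of the butyryl island alone it was 0.016, and by that of the acetyl island 0.35. In matched pairs the widest class was above the narrowest in every strength class, by medians of 0.45 (0.39 to 0.49) against 0.12 (0.077 to 0.16) in the weakest and 0.49 (0.38 to 0.55) against 0.30 (0.21 to 0.32) in the strongest.

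Strength without regard to width gave no stable relation. Over all pairs the median ratio was 0.23, 0.23, 0.25, 0.27 and 0.30 from the weakest to the strongest class, while the median H4K8bu fold ran from 2.79 to 9.06. The difference between the outer classes, 0.065 (0.050 to 0.081), turned to -0.025 among pairs with at least 100 reads in each list and to -0.010 with lists of equal length. Sorted by the fold of 1 mark it followed that mark by construction, 0.33 by H4K8bu and -0.23 by H4K8ac. Sorted by the fold of the H4K5ac island at the same place, a library outside the ratio, it was 0.10 (0.091 to 0.12). In matched pairs it was 0.16, but 0.025 (-0.015 to 0.064) where both islands had at least 200 reads. That interval held 0, but width ran against strength in these deeper pairs, with a median joined width of 7700 bp in the weakest and 4000 bp in the strongest class. At like width, matched pairs of any depth had a higher median in the strongest than in the weakest class. It was 0.12 in the weakest and 0.30 in the strongest class up to 2000 bp, 0.23 and 0.40 over 2000 and up to 4000 bp, 0.41 and 0.51 over 4000 and up to 8000 bp, and 0.45 and 0.49 over 8000 bp, the last with overlapping intervals.

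**Figure D4:**
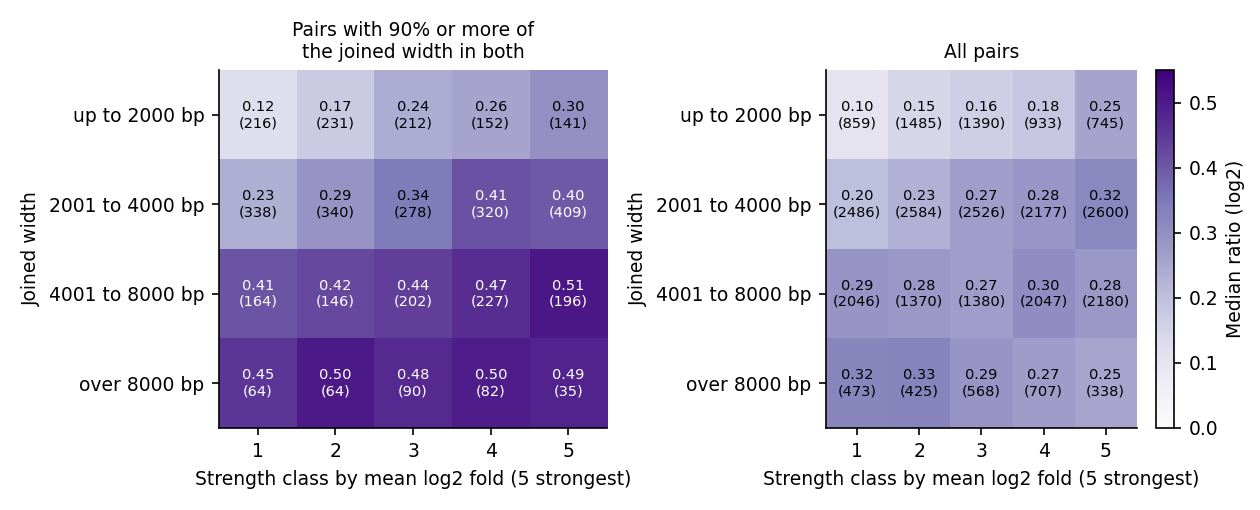
Median H4K8bu fold over H4K8ac fold (log2) by joined width (rows) and strength class by mean log2 fold (columns, 5 the strongest) in matched pairs (left) and all pairs (right), with the number of pairs below each median. In matched pairs the widest row is darker than the narrowest in every column, and in all pairs the strongest column stays between 0.25 and 0.32.

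The widest pairs had marks of nearly equal extent. At chr12:99617201-99692000 the islands were 74200 bp wide for H4K8bu and 72800 bp for H4K8ac. They held 8118 H4K8bu reads, a fold of 9.61 (9.0 to 10.3), and 5805 H4K8ac reads, a fold of 7.37 (6.88 to 7.89). At chr9:54055801-54124600 the fold was 8.56 (7.98 to 9.19) for H4K8bu and 7.11 (6.62 to 7.65) for H4K8ac. At chr7:77021801-77089800 it was 9.27 (8.64 to 9.96) and 7.42 (6.90 to 7.98). By reads scaled for library size, H4K8bu was 1.33 (1.29 to 1.38), 1.22 (1.17 to 1.26) and 1.25 (1.20 to 1.29) times H4K8ac in these 3 regions. Their log2 ratios of folds were 0.38, 0.27 and 0.32. All 3 lay below the median of 0.48 and the 25th percentile of 0.396 of matched pairs over 8000 bp. All 3 were marked in round spermatids too, with H4K8bu folds of 5.21, 3.36 and 3.82 and H4K8ac folds of 3.37, 2.85 and 3.28. The pairs with the highest mean fold were short, with joined widths of 2800 to 4000 bp. The ratio of folds was 1.48 at chr10:20670801-20674800, 1.54 at chr6:88467201-88470000 and 1.91 at chr2:31426801-31430400, each over 11 to 15 input reads.

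Matched pairs with the most extreme ratios, chosen after the data were seen, differed by up to about 2-fold. At chr18:51902601-51906600 there were 377 H4K8bu reads over 36 input reads and 170 H4K8ac reads over 34, a ratio of reads of 2.11 (1.76 to 2.55). At chr1:31006801-31009600 it was 1.97 (1.59 to 2.46), and at chr1:136458201-136463600 1.88 (1.63 to 2.17). At the other end, the 1400 bp islands at chr18:58569201-58570600 held 106 H4K8bu and 134 H4K8ac reads over the same 25 input reads, a ratio of 0.753 (0.578 to 0.979). At chr6:112684201-112687000 it was 0.846 (0.695 to 1.03) and at chr9:51477001-51478400 0.787 (0.598 to 1.03). These intervals are not adjusted for the choice of the extremes among 2830 such pairs.

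The ratio was then looked up at the same places in round spermatids, where all libraries were others. Among 215 regions with matched pairs in both stages the ratios had a Pearson correlation of 0.39 and a Spearman correlation of 0.39. In 5 classes by the spermatocyte ratio, of 43 regions each, the round spermatid medians were 0.32, 0.47, 0.62, 0.52 and 0.57, beside spermatocyte medians of 0.14, 0.33, 0.42, 0.52 and 0.66. The lowest class in spermatocytes was also the lowest in round spermatids, and the upper 3 showed no order. With the limit on extent at 80% in place of 90% the Pearson correlation was 0.18 over 1485 regions, and over all 13399 regions with a pair in each stage it was 0.069. The value thus depended on how equal the islands were required to be. Width moved with it: among the 215 regions the ratio in spermatocytes had a correlation of 0.24 with log2 width, and the correlation between the stages was 0.30 in the 105 regions up to 4000 bp and 0.42 in the 110 wider ones. Regions are not replicates, and the lists of both stages share the genome and its mappability.

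**Figure D5:**
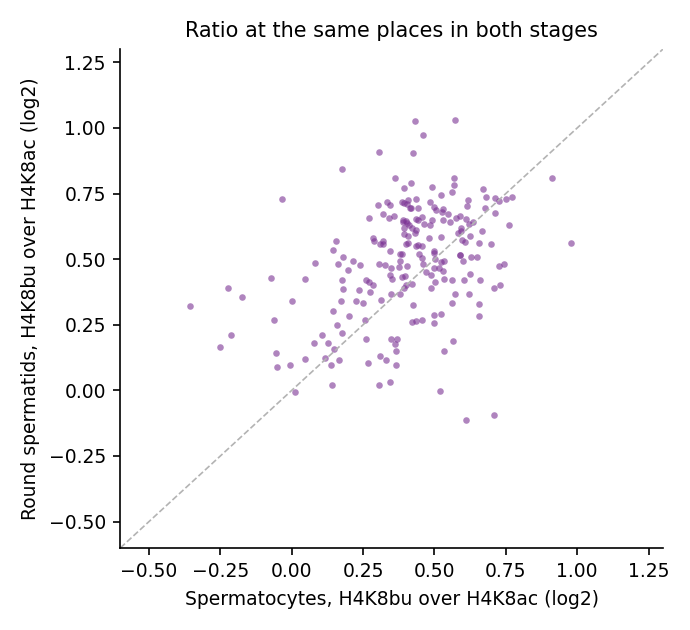
H4K8bu fold over H4K8ac fold (log2) in round spermatids (vertical) against spermatocytes (horizontal) at the 215 regions with matched pairs in both stages, 1 point a region, with a dashed line at equal values. Points lie in a broad cloud, with a Pearson correlation of 0.39 across regions.

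Set beside the most similar comparisons, the relation of ratio to width at K8 in spermatocytes had the direction of K8 in round spermatids and not that of K5 in spermatocytes. K5 in round spermatids was not analysed here. In matched pairs the difference between the widest and the narrowest class was 0.28 at K8 in spermatocytes, 0.26 at K8 in round spermatids and -0.23 at K5 in spermatocytes. Over all pairs it was 0.13, 0.053 and -0.30 in the same order. In matched pairs the K5 medians were negative in every width class, from -0.39 in the narrowest to -0.63 in the widest. The K8 medians were positive, from 0.20 to 0.48 in spermatocytes and from 0.34 to 0.60 in round spermatids. In all 3 comparisons the mark with the higher fold thus led by more in the widest class. Which mark has the higher fold depends on antibody and enrichment. Whether the opposite direction at K5 follows from which mark had the higher fold was not tested. In round spermatids the all-pairs medians were level over the first 3 width classes, at 0.31, 0.31 and 0.30, and 0.36 in the widest. The K5 and K8 lists of spermatocytes share 1 input library. The butyryl island was wider in 63.2% of all K8 pairs of spermatocytes, 82.6% of K8 pairs of round spermatids and 63.1% of K5 pairs of spermatocytes. The butyryl island was thus mostly the wider in all 3 comparisons, while in matched pairs the ratio was higher in the widest class at K8 in both stages and lower at K5 in spermatocytes. No test of these differences was possible with 1 library for each mark and stage.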

How the data were processed

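ChIP-seq islands of spermatocytes and round spermatids were used, 1 list for each of 8 immunoprecipitated libraries. The tools named in the submitters' processing notes are SICER, Bowtie2 2.2.5, CASAVA 1.8.2 and deepTools 1.5.11, with build mm9. For their settings, duplicate treatment and the SICER version: not given in the sources used here. Columns deposited by the authors held counts of ChIP and input reads, a p-value, a fold (ratio) and a q-value per island. The deposited fold equalled ChIP over input reads times 1 constant per list (1.1842 for H4K8bu, 1.2436 for H4K8ac) wherever input was above 0. In the 3 H4K8bu and H4K8ac islands with no input read, 1 input read was assumed here. Starts were counted from 0 in the files and are given from 1.

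Islands on chromosomes 1 to 19 were compared by overlap of at least 1 bp in Python 3.11.15 (pandas 2.3.3, scipy 1.17.1). Joined regions merge overlapping islands of both lists. Shares have exact Clopper-Pearson intervals, folds exact conditional binomial ones and medians order-statistic ones. Counting error of a log2 ratio came from the reciprocals of the ChIP counts. No molecular identifiers are named in the labels, so a read is not an independent molecule and these intervals hold counting error only. The scripts were tested on simulated lists. No genome or annotation of mm9 was at hand, so islands were neither assigned to genes nor printed as sequence. Named regions followed a rule: among pairs where both islands had 100 reads or more, the 3 highest and 3 lowest ratios and the 3 strongest; the 3 widest; for each list, the 3 private islands with most reads and with highest fold; and the 3 joined regions with most islands. The islands, classes and rules were chosen with earlier results of these data known.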

Additional observations from a re-analysis of the deposited data

Results flagged for a closer look

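The relation of the butyryl to acetyl ratio to width differed in direction between the residues in spermatocytes. From the narrowest to the widest pairs the median ratio (log2) differed by 0.13 at K8, from 0.16 to 0.30, and by -0.30 at K5, from -0.42 to -0.72. The residues differ by 0.43 in this measure. The difference was not tested, as each mark had 1 library, and the lists of both residues share 1 input library. At each residue the mark with the higher fold, butyryl at K8 and acetyl at K5, led by more in the widest pairs. Which mark has the higher fold depends on antibody and enrichment. Whether the opposite direction follows from which mark had the higher fold was not tested.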

How the results depend on the processing

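Settings moved the size of most results. With an overlap of at least 50% of both islands, 66.5% of H4K8bu and 76.5% of H4K8ac islands were shared. The percents were 83.4 and 87.4 with lists of equal length by fold, 76.5 and 95.2 with a q-value of 1e-10 or less, and 75.3 and 88.6 with only the stronger 50% of islands by fold. The median ratio (log2) was 0.27 with 50% overlap, 0.27 with equal length, 0.24 in the upper 50%, 0.28 with the same edges, 0.26 per kb without input and 0.30 with at least 100 reads. With at least 90% of the joined width in both islands it was 0.37, and 0.45 with 200 reads besides. Both of these were chosen after seeing the data. The widest minus narrowest class gave 0.17 with 50% overlap, -0.0027 in the upper 50%, 0.27 with the same edges, 0.16 per kb, 0.35 by H4K8ac width, 0.016 by H4K8bu width, 0.28 at 90% and 0.46 with 200 reads besides, the last resting on 5 narrow pairs. The strongest minus weakest strength class gave -0.010 with equal length, 0.11 in the upper 50%, 0.18 with the same edges, 0.10 per kb, -0.025 with at least 100 reads, -0.23 by H4K8ac fold, 0.33 by H4K8bu fold, 0.10 by H4K5ac fold, 0.16 at 90% and 0.025 with 200 reads besides. The cause was not tested. The width difference of 400 bp was the same under every alternative run for it. No paired analysis was possible because each mark had 1 library. With no replicate, no error between animals or immunoprecipitations is known.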
